A study of Mus musculus with 9 samples.

Results

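The cytosolic ribosomal proteins are the protein subunits of the ribosomes that translate nuclear-encoded messages. Their genes were taken from a table of normalized counts by symbol alone, as the Rpl and Rps genes followed by a number together with Rpsa, Rplp0, Rplp1, Rplp2 and Fau. Pseudogene symbols and the Rps6 kinases were left out. The rule found 82 genes among the 7197 genes listed. It used no measured value, although it was set with earlier results of these data known. They comprised all 78 canonical subunit genes looked for, with 32 of the small and 46 of the large subunit, and 4 paralogs, Rpl22l1, Rpl3l, Rpl7l1 and Rps27l.

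Neutrophils were sorted from mouse bone marrow as CD45+, CD11b+ and Ly6G+ cells, and their RNA was read at the 3′ end. The 5 Rragc+/+ libraries came from wild-type mice and the 4 RragcS74N/+ libraries from mice with 1 edited copy of Rragc, all 2 months old and with no treatment named. Rragc encodes RagC, one of the small GTPases that bring mTORC1, the nutrient-sensing growth kinase complex, to the lysosome, and the S74N change holds RagC in an active, GDP-like state. The edit is a knock-in at the gene itself, so it is carried by all cells of the mouse and not by neutrophils alone. The labels name no litter, sorting day or animal for each library, so p-values measure the spread between these samples. The libraries held 1214295 to 1973957 reads over the listed genes. The 3 sorting markers, all 10 mature neutrophil markers and all 7 secondary granule markers were listed, whereas 0 of 5 primary granule genes and 0 of 4 platelet genes were. Rragc itself was at 71.0 ± 10.3 in Rragc+/+ (SD, n = 5) against 65.8 ± 9.52 in RragcS74N/+ (SD, n = 4) in normalized counts, and a 3′-end count does not read the edited exon. Rragc+/+ replicate 2, the library with the fewest reads (1214295), stood apart. It had the highest or the lowest value of the 9 libraries for 49.7% of all genes tested, so results that rest on it are given with and without it.

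A ribosome holds a single copy of nearly every one of these proteins, so their genes are kept in step mainly through shared control of their messages. The messages are the best known 5′-terminal oligopyrimidine (TOP) mRNAs, which begin with a C followed by an unbroken run of pyrimidines directly at the cap. When mTORC1 is inactive, the protein LARP1 and the 4E-BP repressors keep TOP messages out of translation while the messages themselves can persist, and when mTORC1 is active they are loaded onto ribosomes. Transcription of ribosomal genes is also linked to growth signals. Neutrophils stop dividing and lower their protein synthesis as they mature in the marrow. Counts of RNA measure message abundance and not translation.

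Sequence at the annotated start was found for 62 of the 82 genes among RefSeq transcripts of GRCm38.p6, whose assembly is not that of the deposited counts (GRCm39). A C and at least 4 more pyrimidines stood exactly at the annotated start of 14 of these 62 genes (22.6%), against 813 of 27025 genes of the genome (3.01%). Annotated starts can be off by some bases, so a run of at least 7 pyrimidines that begins with C was also sought within 50 bases on either side, on the gene's strand alone. It was present in 54 of 62 genes (87.1%) and in 12021 of 27025 genes of the genome (44.5%). The first 20 bases are shown for 10 of the genes with a TOP start, because these 10 were extreme in opposite directions in Rragc+/+ replicate 2. They are also shown for the 4 paralogs, which, like most of the 62 genes, lacked the run exactly at the annotated start. Capitals mark the pyrimidine run, and the bases are given 5′ to 3′ on the gene's strand. The first 6 genes were highest of the 9 libraries in that library.
Fau (chr19:6057947-6057966, plus strand): CTTCCTCTTTCTTgactcca
Rpl14 (chr9:120571517-120571536, plus strand): CTTCTCgctgagcgccgcca
Rpl15 (chr14:18270967-18270986, minus strand): CTTCCTTTCCTCTggcggca
Rpl28 (chr7:4792965-4792984, plus strand): CTCTTTCCgtctccggccgc
Rps6 (chr4:86857348-86857367, minus strand): CTCTTTTTCgtgacgcctcc
Rps10 (chr17:27635225-27635244, minus strand): CTTCCTTTCCagcctccgcc
The next 4 genes were lowest of the 9 libraries in Rragc+/+ replicate 2.
Rps15a (chr7:118116128-118116147, minus strand): CTTCCCTCgccggtgagtga
Rps18 (chr17:33955646-33955665, minus strand): CTCTCTTCCacaggaggcct
Rps21 (chr2:180257379-180257398, plus strand): CTCCTgcccaatagtgctgc
Rps27 (chr3:90213629-90213648, minus strand): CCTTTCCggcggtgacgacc
The 4 paralogs had no such run at the first annotated start, as most of the 62 genes had none. Within the bases shown, Rpl22l1, Rpl3l and Rps27l each held a C followed by at least 4 more pyrimidines further in.
Rpl22l1 (chr3:28805508-28805527, plus strand): gttctcttcccacggctgca
Rpl3l (chr17:24727826-24727845, plus strand): gtcatttgacctctggtgcc
Rpl7l1 (chr17:46782637-46782656, minus strand): cgcagtagctgaagcaccgg
Rps27l (chr9:66946086-66946105, plus strand): gcctctatcccggaagttgc
Fau and Rpl15 carried the longest runs among the 14 genes, with 13 pyrimidines each. Genes of both directions began with near-identical letters, for example CTTCC in Fau, Rpl15 and Rps10 (high) and in Rps15a (low). The median log2 difference between genotypes was -0.042 for the 14 genes with the run, of which 8 were negative, and 0.061 for the other 47 genes with a start that were tested, of which 20 were negative.

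The share of all normalized counts that fell on the 82 genes asks whether message for the ribosome as a whole differed between genotypes, and it does not depend on how libraries were scaled. It was 3.63, 3.52, 3.56, 3.37 and 4.82% in Rragc+/+ replicates 1 to 5 and 3.09, 3.88, 3.33 and 4.88% in RragcS74N/+ replicates 1 to 4. Rragc+/+ replicate 5 and RragcS74N/+ replicate 4 were the highest of their genotypes and RragcS74N/+ replicate 1 was the lowest of all, and the genotypes overlapped. The means were 3.78% ± 0.588 (SD, n = 5) and 3.80% ± 0.796 (SD, n = 4), a difference of 0.0169 percentage points that is smaller than either spread. Counting error was far smaller than the gap between the extreme libraries: the 95% Wilson intervals of the highest and the lowest share were 4.85% to 4.92% and 3.07% to 3.12%. Some libraries with close shares had overlapping intervals, such as Rragc+/+ replicate 2 (3.49% to 3.55%) and Rragc+/+ replicate 3 (3.53% to 3.59%). Wilson intervals cover counting error at most. They would be too narrow even for that if reads were not collapsed by molecular identifier, which is not stated. Without RragcS74N/+ replicate 4 the difference was -0.346 percentage points, and without Rragc+/+ replicate 5 it was 0.276.

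**Figure D1:**
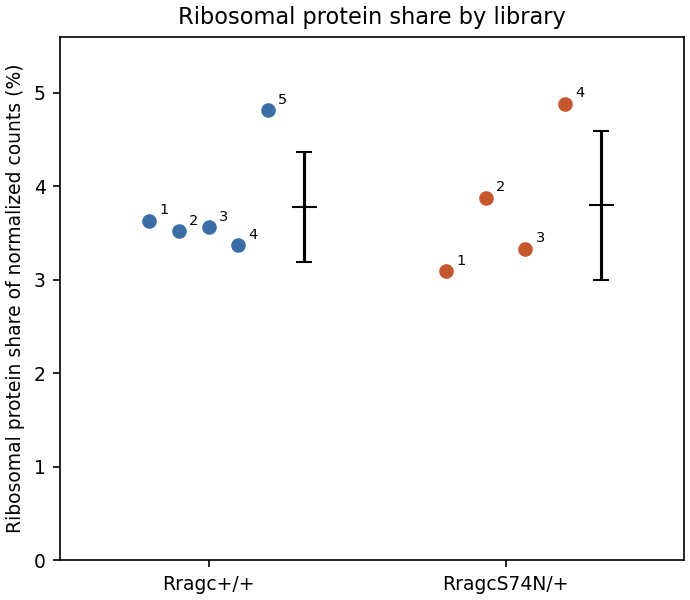
Share of normalized counts on the 82 ribosomal protein genes (vertical axis, %) for each library, marked with its replicate number, by genotype. The bars give the mean and the SD; the genotypes overlap, with 1 library of each near 4.8% to 4.9% (Rragc+/+ replicate 5 and RragcS74N/+ replicate 4).

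The sum over the small subunit divided by the sum over the large subunit was 1.04, 0.947, 0.970, 0.989 and 0.967 in Rragc+/+ replicates 1 to 5 and 1.03, 0.915, 1.06 and 0.992 in RragcS74N/+ replicates 1 to 4. The subunits thus stayed within 0.915 to 1.06 of each other in every library, while the share itself ranged from 3.09% to 4.88%. The ratio did not separate the genotypes, which had means of 0.983 ± 0.0371 (SD, n = 5) and 1.000 ± 0.0635 (SD, n = 4).

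Levels differed far more between the genes than between the libraries. A 3′-end library reads about once per message, so its normalized counts compare genes without a correction for length. Mean normalized counts over the 9 libraries ran from 3744 for Rps9 to 8.19 for Rpl10a, a 457-fold span, with a median of 298 against 53.5 for all genes tested. The 6 highest were Rps9 (3744), Rpl37 (2837), Rps27a (2638), Rps14 (2219), Rpl34 (1966) and Rps29 (1881). The 21 genes above 1000 held 68.2% of the ribosomal sum. Within a gene the highest library exceeded the lowest by a median of 2.45-fold, against 2.22-fold over all genes tested with no library at 0.

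Rps9, a small subunit protein at the channel where message enters, was the steadiest of the abundant members. Its normalized counts were 3863, 4349, 4115, 3486 and 3607 in Rragc+/+ replicates 1 to 5 and 3427, 3344, 3535 and 3968 in RragcS74N/+ replicates 1 to 4. All 9 libraries lay within 1.30-fold, and the genotypes overlapped. Rpl37 is a zinc-binding protein of the large subunit, and it was at 2729, 1926, 2099, 2667 and 3695 in Rragc+/+ replicates 1 to 5 and 1999, 3418, 2294 and 4704 in RragcS74N/+ replicates 1 to 4. Rpl37 was highest in RragcS74N/+ replicate 4 and lowest in Rragc+/+ replicate 2, and its log2 difference of 0.20 (SE 0.26) was smaller than its SE and became 0.10 without Rragc+/+ replicate 2. Rps27a encodes ubiquitin joined to a small subunit protein, and its counts were 2611, 1732, 2079.8, 1814 and 3439.9 in Rragc+/+ replicates 1 to 5 and 1993, 3183, 2335 and 4555 in RragcS74N/+ replicates 1 to 4. It too was lowest in Rragc+/+ replicate 2 and highest in RragcS74N/+ replicate 4. Rps14, which helps form the platform of the small subunit, was at 1776, 2744, 2468, 2016 and 2783 in Rragc+/+ replicates 1 to 5 and 1489, 2224, 1725 and 2742 in RragcS74N/+ replicates 1 to 4. RragcS74N/+ replicate 1 was the lowest and Rragc+/+ replicate 5 the highest library. Rpl34 was at 1889, 1289, 1953, 1572 and 2680.0 in Rragc+/+ replicates 1 to 5 and 1505, 2439, 1658 and 2708 in RragcS74N/+ replicates 1 to 4, and Rps29, a small zinc-binding protein, was at 1676, 1386, 1824, 1713 and 2443 in Rragc+/+ replicates 1 to 5 and 1388, 2163, 1672 and 2662 in RragcS74N/+ replicates 1 to 4. Both were highest in RragcS74N/+ replicate 4 and lowest in Rragc+/+ replicate 2, with the genotypes mixed between. Over the 6 highest and the 4 lowest genes tested, the log2 difference ran from -0.22 for Rps14 to 0.52 for Rpl10, and these were -0.16 and 0.20 without Rragc+/+ replicate 2.

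At the low end, the 4 lowest genes tested were Rpl13a (15.2 normalized counts), Rpl10 (21.7), Rpl12 (32.1) and Rpl3 (42.9). Rpl10a, a protein of the large subunit stalk that releases spent tRNA, was the 1 member under the minimum mean of 10 for testing. It was listed at 5.27, 12.9, 6.56, 1.61 and 14.0 in Rragc+/+ replicates 1 to 5 and 5.97, 15.2, 3.77 and 8.36 in RragcS74N/+ replicates 1 to 4, so the genotypes overlapped. Rpl10, the large subunit protein that is added late, in the cytoplasm, was at 36.2, 5.84, 15.0, 12.9 and 22.1 in Rragc+/+ replicates 1 to 5 and 11.3, 19.3, 28.6 and 43.9 in RragcS74N/+ replicates 1 to 4. Rragc+/+ replicate 2 was the lowest and RragcS74N/+ replicate 4 the highest. Rpl13a was at 19.1, 10.5, 9.37, 14.5 and 18.0 in Rragc+/+ replicates 1 to 5 and 5.97, 18.3, 20.3 and 20.9 in RragcS74N/+ replicates 1 to 4, and Rpl12, part of the stalk base, was at 35.6, 28.0, 22.5, 28.9 and 46.1 in Rragc+/+ replicates 1 to 5 and 19.9, 30.5, 26.4 and 51.2 in RragcS74N/+ replicates 1 to 4. RragcS74N/+ replicate 1 was the lowest library for both and RragcS74N/+ replicate 4 the highest, so that 1 genotype held both ends. Ribosomal protein genes have many processed pseudogenes, and reads that match several places can be lost or split by the aligner and the counter. Of the 82 genes, 65 shared at least 1 stretch of 50 bases in the last 500 bases of a GENCODE transcript with another gene, 63 of them with a pseudogene, and 22 had fewer than 20% unique stretches. Rpl10 had 0%, Rpl10a 7.10% and Rpl3 16.4% unique stretches, but Rpl12 had 100% and Rpl13a 80.7%, and the highly counted Rps27a had 7.32%. Across the 82 genes, which are not independent replicates, the level had a Spearman correlation of 0.047 with the percent unique. Levels of genes with few unique stretches are uncertain. The percent unique rests on a single chosen transcript per gene, and whether the reads fell at its end was not checked. The chosen transcript was 5179 bases long for Rps15a, 3706 for Rps20 and 1242 for Rpl12, against a median of 777.5 for the 82 genes. The percent unique and its correlation with level are therefore uncertain as well.

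**Figure D2:**
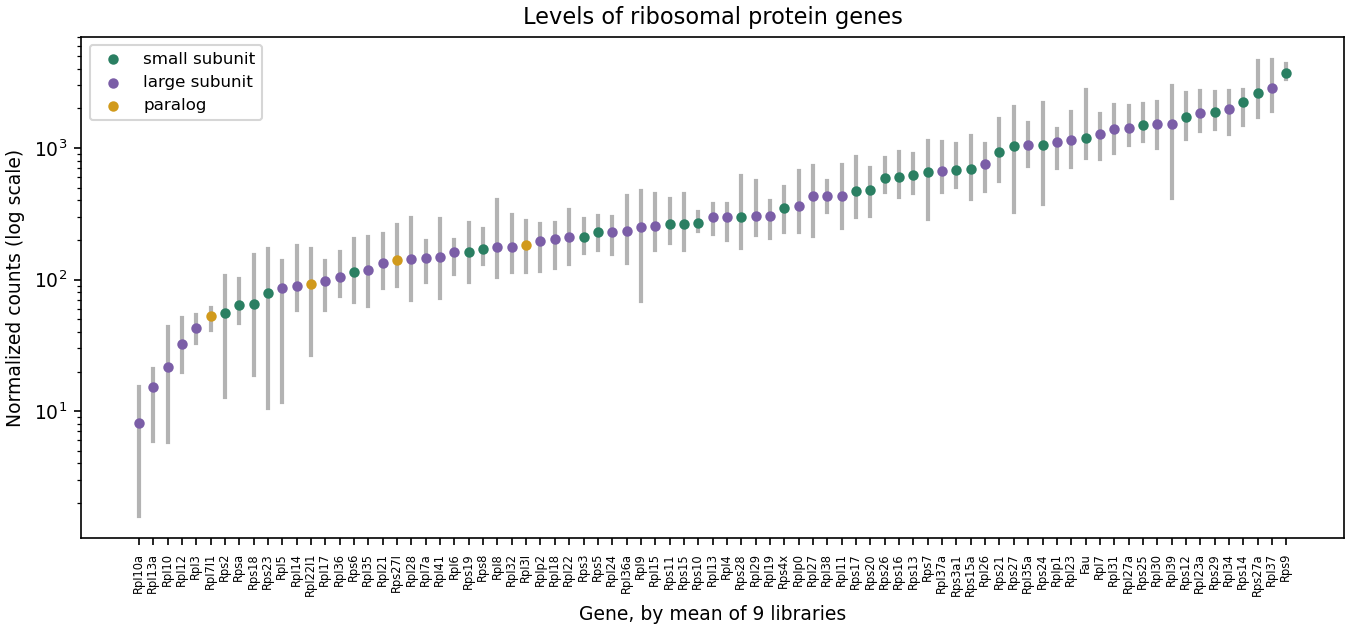
Normalized counts (vertical axis, log scale) of 81 of the 82 genes, ordered by the mean over 9 libraries; points are means, coloured by subunit or paralog, and grey bars run from the lowest to the highest library. The means span 8.19 (Rpl10a) to 3744 (Rps9). Both subunits are spread along most of the range, but no small subunit gene lies below Rps2 (55.7).

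The comparison of genotypes asks whether an active RagC changed the abundance of messages for ribosomal proteins. No member was called in 81 tested: limma on log2(value + 1) over 6673 genes gave 0 genes at an adjusted p under 0.05 (0% of all genes tested), with 0.713 as the smallest adjusted p. At an unadjusted p under 0.05, 6 of 81 members were found (7.41%), against 388 of 6673 genes (5.81%). All 6 were lower in RragcS74N/+, where the background of lower genes was 3.81%, and 0 were higher, where it was 2.01%. edgeR on the recovered reads gave 8 members against a background of 6.89%, and DESeq2 gave 8 against 6.7%, again all lower (5.1% and 4.87% of all genes) and again with 0 adjusted calls. With all 9 libraries the median log2 difference of the members was 0.025 against 0.024 over all genes, and 38 of 81 members (46.9%) were negative against 46.6% of all genes. Single libraries moved these values. Without RragcS74N/+ replicate 4 the median was -0.15 with 63 of 81 members negative, and without RragcS74N/+ replicate 1 it was 0.16 with 27 negative, while the median of all genes was 0.018 and 0.0099. No member had genotypes that did not overlap, against 1.69% of all genes.

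The precision of the design bounds what could be missed. The median SE of a member's log2 difference was 0.26, and its SD within a genotype had a median of 0.46 on the log2 scale, against 0.36 over all genes tested. The 95% interval of the difference lay inside -1 to 1, less than a doubling or its inverse on this scale, for 60 of 81 members and inside -0.5 to 0.5 for 7. In the small subunit the median difference was 0.059, with 1 of 32 genes (3.1%) at an unadjusted p under 0.05. In the large subunit it was 0.011, with 5 of 45 (11.1%). The share over all genes tested was 5.81%. All of these subunit genes were lower, where the share over all genes was 3.81%. A difference between the subunits was not tested.

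**Figure D3:**
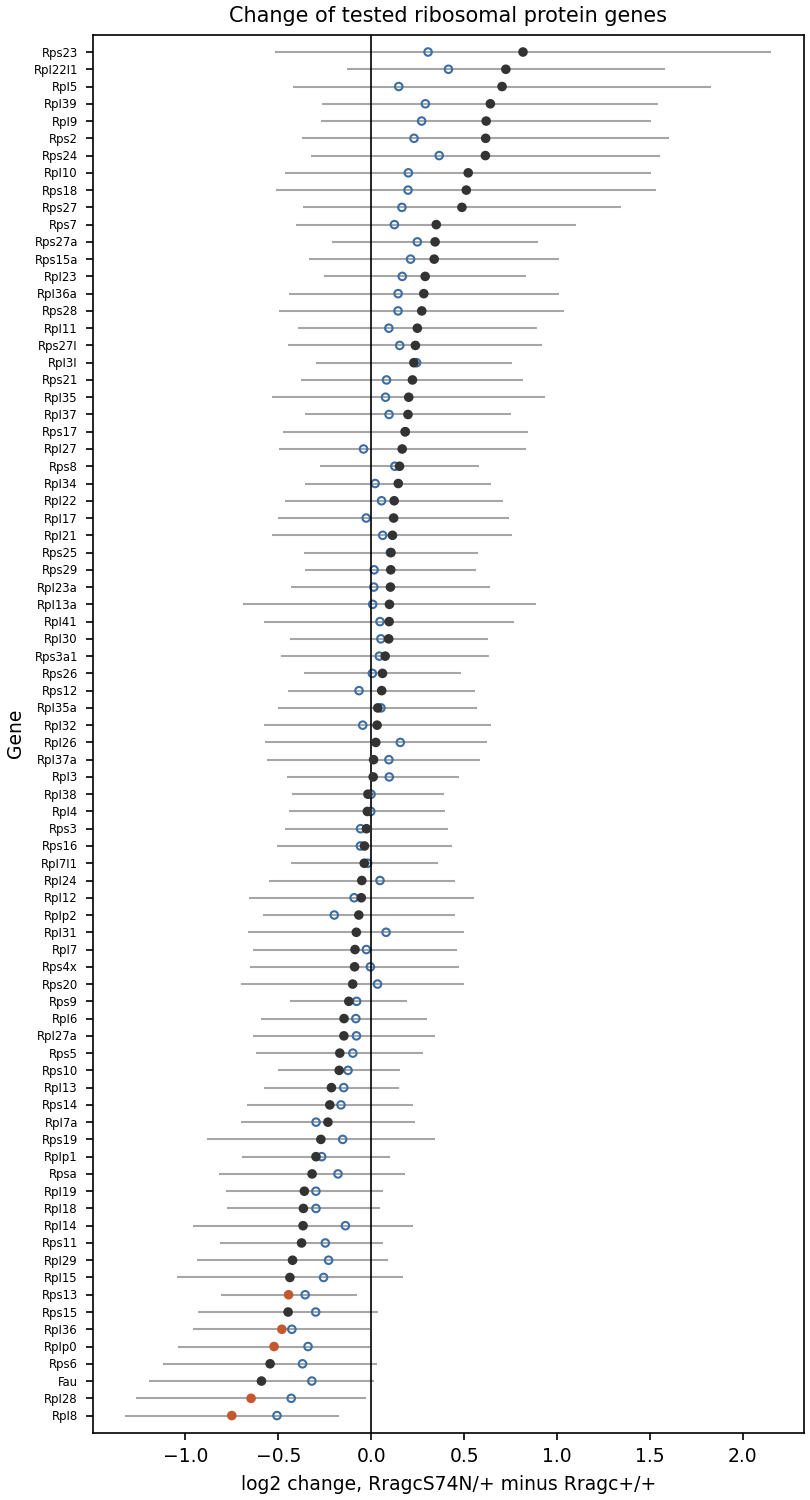
Log2 difference of RragcS74N/+ minus Rragc+/+ (horizontal axis) for 80 of the 81 tested genes. Filled points are the estimates from all 9 libraries with 95% limma intervals (grey), orange where the unadjusted p was under 0.05 (5 of the genes drawn), and open blue circles are the estimates without Rragc+/+ replicate 2; 60 of the intervals lie inside -1 to 1, and the open circles of the genes at both ends sit closer to 0.

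Rpl8, which lies beside the catalytic centre of the large subunit, was the lower gene with the smallest p. Its normalized counts were 124, 402, 213, 194 and 172 in Rragc+/+ replicates 1 to 5 and 104, 119, 132 and 132 in RragcS74N/+ replicates 1 to 4. Rragc+/+ replicate 2 was the highest by far, and Rragc+/+ replicate 1 fell among the RragcS74N/+ libraries, so the genotypes overlapped. The means were 221 ± 106 in Rragc+/+ (SD, n = 5) against 122 ± 13.2 in RragcS74N/+ (SD, n = 4). The log2 difference was -0.75 (SE 0.27) with a 95% interval of -1.33 to -0.17 (limma, adjusted p = 0.713), and -0.51 without Rragc+/+ replicate 2. Rpl8 was under an unadjusted p of 0.05 in all 22 alternative fits, between -0.93 and -0.45, with an adjusted p from 0.326 to 0.994. Rps13 belongs to the small subunit and contacts the large one. It was at 611, 894, 786, 662 and 582 in Rragc+/+ replicates 1 to 5 and 452, 594, 509 and 506 in RragcS74N/+ replicates 1 to 4. All RragcS74N/+ libraries but replicate 2 lay below every Rragc+/+ library. The log2 difference was -0.44 (SE 0.17) (limma, adjusted p = 0.713) and -0.36 without Rragc+/+ replicate 2, and it was under an unadjusted p of 0.05 in 19 of 22 alternatives. Only 6.65% of its 3′ stretches were unique.

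Rpl28, Rplp0 and Rpl36, also among the 6 lower genes, belong to the large subunit, and the first 2 were led by Rragc+/+ replicate 2. Rpl28 was at 154, 294, 197, 101 and 120.3 in Rragc+/+ replicates 1 to 5 and 70.3, 107, 135 and 109.7 in RragcS74N/+ replicates 1 to 4. Its lowest library was RragcS74N/+ replicate 1, and Rragc+/+ replicates 4 and 5 lay among the RragcS74N/+ libraries. Rplp0, the base of the stalk on which the P1 and P2 proteins sit, was at 398, 667, 481, 290.2 and 281 in Rragc+/+ replicates 1 to 5 and 231, 273, 297 and 324 in RragcS74N/+ replicates 1 to 4. Rragc+/+ replicates 4 and 5 again lay within the RragcS74N/+ range. Rpl36 was at 81.0, 137, 134, 93.2 and 162 in Rragc+/+ replicates 1 to 5 and 74.9, 75.2, 82.8 and 107 in RragcS74N/+ replicates 1 to 4. Its highest library was Rragc+/+ replicate 5, and RragcS74N/+ replicate 4 lay above 2 of the Rragc+/+ libraries. The log2 differences were -0.65 (SE 0.29) for Rpl28, -0.52 (SE 0.24) for Rplp0 and -0.48 (SE 0.22) for Rpl36, each with a limma adjusted p of 0.713. Without Rragc+/+ replicate 2 they were -0.43, -0.34 and -0.43, and none of the 3 was then under an unadjusted p of 0.05. In that fit 2 of 81 members, Rpl8 and Rps13, were, against a background of 3.01%. Other fits gave other counts, each given with its background: it was 11 without Rragc+/+ replicate 5 (background 13.7%), with 6 lower (8.06%) and 5 higher (5.63%), and 11 with libraries weighted by their quality (11.5%), with 7 lower (6.46%) and 4 higher (5.07%). Without the 3 libraries that stood out (Rragc+/+ replicates 2 and 5 and RragcS74N/+ replicate 4) it was 4 against 3.9%. With columns rescaled to the same total it was 9 (5.26%). Without Rragc+/+ replicate 4 it was 10 (4.83%), and without RragcS74N/+ replicate 4 it was 7 (3.33%). In these last fits all of the members counted were lower, while the percentages cover both directions.

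The 6 higher genes with the smallest p were not under an unadjusted p of 0.05. Rpl22l1 was at 60.6, 26.9, 67.5, 59.5 and 170.4 in Rragc+/+ replicates 1 to 5 and 72.9, 126, 91.9 and 158 in RragcS74N/+ replicates 1 to 4. Rragc+/+ replicate 5 was the highest library and Rragc+/+ replicate 2 the lowest, so one genotype held both ends. The log2 difference was 0.72 (SE 0.40) (limma, adjusted p = 0.713) and 0.42 without Rragc+/+ replicate 2. Rpl39, a very small protein that lines the exit tunnel, was at 1738, 414, 1040.4, 916 and 2269.9 in Rragc+/+ replicates 1 to 5 and 1016, 2009.9, 1399 and 2958 in RragcS74N/+ replicates 1 to 4. Rragc+/+ replicate 2 was 7.15-fold below RragcS74N/+ replicate 4, and the other libraries overlapped. The log2 difference of 0.64 (SE 0.42) became 0.29 without Rragc+/+ replicate 2.

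Rpl9, Rps24, Rpl5 and Rps2 were likewise lowest in Rragc+/+ replicate 2 and highest in RragcS74N/+ replicate 4. Rpl5, which with Rpl11 escorts the smallest ribosomal RNA and binds the p53 regulator Mdm2, was at 104, 11.7, 63.7, 65.1 and 127 in Rragc+/+ replicates 1 to 5 and 59.7, 119, 85.1 and 138 in RragcS74N/+ replicates 1 to 4. Rragc+/+ replicate 2 was low and the other 8 libraries ran from 59.7 to 138 with both genotypes mixed. Rps24, a protein of the small subunit whose gene is mutated in some families with Diamond-Blackfan anaemia, was at 1166, 374, 549, 479.9 and 2008 in Rragc+/+ replicates 1 to 5 and 779.8, 1136, 881 and 2185 in RragcS74N/+ replicates 1 to 4. Its 2 highest values were in Rragc+/+ replicate 5 and RragcS74N/+ replicate 4. Rpl9 was at 294, 68.9, 146, 174 and 386 in Rragc+/+ replicates 1 to 5 and 192, 316, 217 and 468 in RragcS74N/+ replicates 1 to 4. Rps2, which lies at the message entry of the small subunit, was at 83.6, 12.9, 30.9, 38.6 and 71.2 in Rragc+/+ replicates 1 to 5 and 34.5, 51.8, 71.6 and 107 in RragcS74N/+ replicates 1 to 4. In both, the other 7 libraries mixed the genotypes. The log2 differences were 0.62 (SE 0.41) for Rpl9, 0.61 (SE 0.44) for Rps24, 0.70 (SE 0.52) for Rpl5 and 0.62 (SE 0.46) for Rps2, and 0.27, 0.37, 0.15 and 0.23 without Rragc+/+ replicate 2. The limma adjusted p was between 0.714 and 0.729 for Rpl39, Rpl9, Rps24, Rpl5 and Rps2. The largest estimate among members was 0.82 for Rps23, a protein of the decoding centre named here after its values were seen, with an interval of -0.52 to 2.15. Rps23 was at 133, 10.5, 52.5, 24.1 and 115 in Rragc+/+ replicates 1 to 5 and 39.8, 94.5, 72.3 and 170.3 in RragcS74N/+ replicates 1 to 4. Rragc+/+ replicate 2 was the lowest and replicate 1 of the same genotype among the highest, and without Rragc+/+ replicate 2 the estimate was 0.31.

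Members with a particular role were also read one by one. Rps6 is the small subunit protein that the S6 kinases phosphorylate downstream of mTORC1. Its message was at 81.7, 204, 185, 96.5 and 105 in Rragc+/+ replicates 1 to 5 and 95.5, 101, 67.8 and 83.6 in RragcS74N/+ replicates 1 to 4. Rragc+/+ replicates 2 and 3 were high, and the other 7 libraries of both genotypes were mixed between 67.8 and 105. This gave a log2 difference of -0.54 (SE 0.27) with an interval of -1.12 to 0.033 (limma, adjusted p = 0.713), and -0.37 without Rragc+/+ replicate 2. Fau, which encodes a ubiquitin-like protein joined to a small subunit protein, was at 1031, 2763, 1584, 896 and 929 in Rragc+/+ replicates 1 to 5 and 849, 842, 862 and 909 in RragcS74N/+ replicates 1 to 4. The 4 RragcS74N/+ libraries ran only from 842 to 909, while Rragc+/+ replicate 2 was 3.28-fold above the lowest library. Its log2 difference was -0.59 (SE 0.28), or -0.32 without that library.

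The acidic stalk proteins Rplp1 and Rplp2 recruit the elongation factors. Rplp1 was at 954, 1294, 1399, 1088 and 1262 in Rragc+/+ replicates 1 to 5 and 709, 989, 1014 and 1231 in RragcS74N/+ replicates 1 to 4. RragcS74N/+ replicate 1 was the lowest and Rragc+/+ replicate 3 the highest, with overlap between. Rplp2 was at 265, 134, 190.3, 226 and 180.5 in Rragc+/+ replicates 1 to 5 and 115, 210.4, 240.3 and 203 in RragcS74N/+ replicates 1 to 4. RragcS74N/+ replicate 1 was again the lowest, but Rragc+/+ replicate 2 was next. The log2 differences of the stalk proteins were -0.52 (SE 0.24) for Rplp0, -0.30 (SE 0.19) for Rplp1 and -0.066 (SE 0.24) for Rplp2, and -0.34, -0.27 and -0.20 without Rragc+/+ replicate 2. Rpsa, a small subunit protein once described as a laminin receptor, was at 48.7, 100.5, 73.1, 52.3 and 77.2 in Rragc+/+ replicates 1 to 5 and 51.1, 46.8, 50.5 and 72.1 in RragcS74N/+ replicates 1 to 4. It was highest in Rragc+/+ replicate 2, and its log2 difference was -0.32 (SE 0.23), or -0.18 without that library.

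The paralogs were compared with the gene each resembles. Rpl3l, known as the form of Rpl3 in striated muscle, was counted more often than Rpl3 in every library. Rpl3l was at 171, 172, 132, 159 and 198 in Rragc+/+ replicates 1 to 5 and 166, 261, 114 and 281 in RragcS74N/+ replicates 1 to 4, and Rpl3 at 33.6, 53.8, 45.0, 33.0 and 49.1 in Rragc+/+ replicates 1 to 5 and 33.2, 41.7, 52.0 and 44.9 in RragcS74N/+ replicates 1 to 4. The ratio of Rpl3l to Rpl3 ran from 2.94 to 5.08 in Rragc+/+ and from 2.20 to 6.27 in RragcS74N/+, so the genotypes overlapped. All 3′ stretches of Rpl3l but only 16.4% of those of Rpl3 were unique, and whether this sets the ratio was not tested. Rpl22l1 was below Rpl22 in every library, at ratios of 0.325, 0.169, 0.444, 0.315 and 0.556 in Rragc+/+ replicates 1 to 5 and 0.558, 0.517, 0.519 and 0.465 in RragcS74N/+ replicates 1 to 4. The RragcS74N/+ libraries were close together and lay at the upper end of the wider Rragc+/+ range. Rps27l, a p53-inducible relative of Rps27, was at 97.5, 95.8, 113, 105 and 236 in Rragc+/+ replicates 1 to 5 and 89.5, 161, 113 and 259 in RragcS74N/+ replicates 1 to 4. Rragc+/+ replicate 5 and RragcS74N/+ replicate 4 stood above the other 7 libraries. It was at ratios of 0.083 to 0.296 to Rps27 in Rragc+/+ and 0.115 to 0.148 in RragcS74N/+. Rpl7l1, a relative of Rpl7 that acts in assembly of the large subunit, was at 51.4, 56.1, 44.1, 57.1 and 59.2 in Rragc+/+ replicates 1 to 5 and 41.1, 55.9, 52.0 and 60.6 in RragcS74N/+ replicates 1 to 4. It was among the steadiest members, with a log2 difference of -0.037 (SE 0.18) and an interval of -0.43 to 0.36.

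The members moved together across libraries more than across genotypes. RragcS74N/+ replicate 4 was the highest library for 49 of 82 members (59.8%) and for 15.0% of all genes tested. RragcS74N/+ replicate 1 was the lowest for 30 members (36.6%) against 12.8% of genes. On the log2 scale the median member stood 0.58 above its own mean over the 9 libraries in RragcS74N/+ replicate 4 and 0.45 above it in Rragc+/+ replicate 5, and the deviation was -0.40 in RragcS74N/+ replicate 1. The median over all genes tested stayed between -0.0059 and 0.018 in every library. In bulk libraries like these, fewer cells of a type and less RNA per cell cannot be told apart.

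Rragc+/+ replicate 2 split the members instead of shifting them. It was the highest library for 21 members, among them Fau, Rpl8, Rpl28, Rplp0, Rps13 and Rps6, and the lowest for 25, among them Rpl5, Rpl9, Rpl39, Rps2, Rps18, Rps23, Rps24 and Rps27. Together these are 56.1% of members, near the 49.7% of all genes tested. The members that were high in it had a median GC content of 50.8% in the last 500 bases of the transcript (36.4% to 58.4%), and those that were low had 47.2% (38.0% to 53.1%). Both classes held both subunits, with 8 small and 13 large subunit genes in the first and 12 and 12 in the second. The classes were formed after the values were seen and were not tested. The GC content is that of a single chosen transcript per gene, whose end may not be where the reads fell. Members of other libraries also varied with GC content. The Spearman correlation between a member's deviation from its mean and its GC content was 0.22 in Rragc+/+ replicate 2. Over the 9 libraries it ran from -0.34 in RragcS74N/+ replicate 2 to 0.36 in Rragc+/+ replicate 4. After the dependence of values on this GC content was taken out of every library, the log2 difference of Rpl8 was -0.45, of Rps13 -0.30, of Fau -0.25 and of Rpl36 -0.085, each closer to 0. Rpl28 at -0.59, Rplp0 at -0.48 and Rps6 at -0.53 moved by less than 0.1. Of the genes that were low in Rragc+/+ replicate 2, the differences of Rpl5 (0.60) and Rps23 (0.71) became smaller and those of Rpl9 (0.68), Rpl39 (0.68), Rps2 (0.82), Rps18 (0.71), Rps24 (0.64) and Rps27 (0.63) became larger. In that fit 2 of 81 members were at an unadjusted p under 0.05 against a background of 3.98%.

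**Figure D4:**
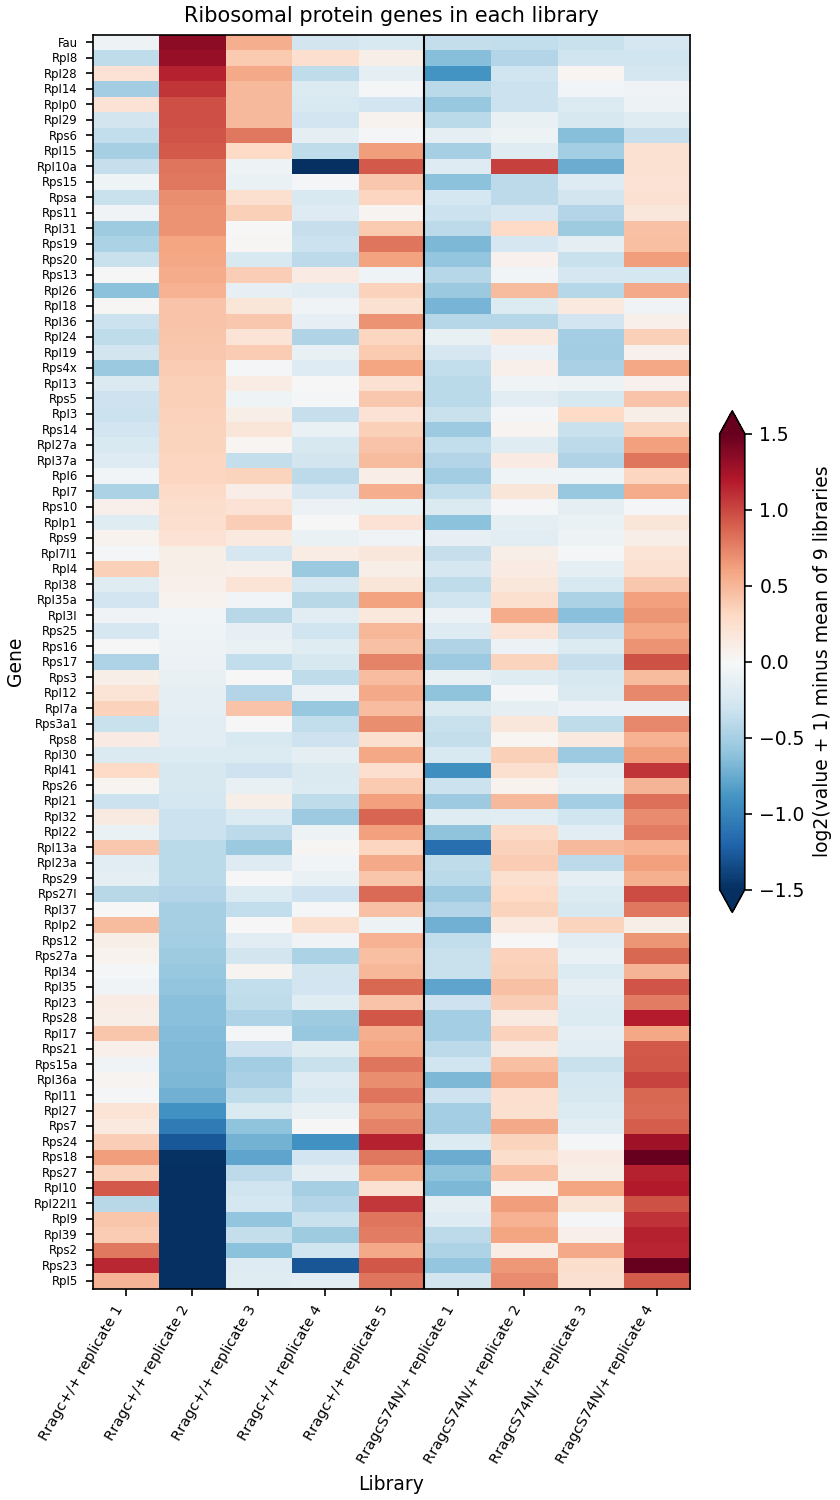
Log2(value + 1) minus the gene's mean over the 9 libraries (colour, in log2 units) for 81 of the 82 genes (rows, ordered by Rragc+/+ replicate 2) in each library (columns; the black line parts the genotypes). Rragc+/+ replicate 5 and RragcS74N/+ replicate 4 are red over most rows, RragcS74N/+ replicate 1 is blue over most rows, and Rragc+/+ replicate 2 runs from red to blue.

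In normalized counts, the libraries with the highest ribosomal shares also had the highest sums of cell cycle and secondary granule messages. Unlike the share, such sums depend on each library's total over the listed genes. This total was 1387503 in Rragc+/+ replicate 5, 1511996 in RragcS74N/+ replicate 4, 1255670 in RragcS74N/+ replicate 3 and 1228453 in RragcS74N/+ replicate 1. The 15 cell cycle genes, all listed, summed to 5452 normalized counts in Rragc+/+ replicate 5 and 5369.5 in RragcS74N/+ replicate 4, and to 2622 to 3948 in the other 7 libraries. The lowest sum was in RragcS74N/+ replicate 1, which also had the lowest ribosomal share. H2az1, a histone variant and the highest of these genes, was at 2109, 1722, 1535, 1929 and 3437 in Rragc+/+ replicates 1 to 5 and 1443, 2194, 2169 and 3518 in RragcS74N/+ replicates 1 to 4. The 7 secondary granule genes, made at the myelocyte stage, summed to 31449 and 33068 in Rragc+/+ replicate 5 and RragcS74N/+ replicate 4, to 19176 in RragcS74N/+ replicate 1 and to 23345 to 28995 in the other 6. The sum of 28995 was in RragcS74N/+ replicate 3, which had a smaller total than both high libraries and a ribosomal share of 3.33%. Relative to these totals, the secondary granule sum was larger in RragcS74N/+ replicate 3 than in Rragc+/+ replicate 5 or RragcS74N/+ replicate 4. For the secondary granule genes the match with the ribosomal share thus holds only as sums of normalized counts. The other marker sums were not taken as shares of the total. The 10 mature neutrophil genes ran from 42286 to 50662 in Rragc+/+ and from 40336 to 59228 in RragcS74N/+, highest in RragcS74N/+ replicate 4.

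Markers of other cells moved with some of the same libraries. The 3 listed of 7 eosinophil and basophil genes summed to 115 in Rragc+/+ replicate 5 and to 186 and 198 in RragcS74N/+ replicates 2 and 4, and to 17.8 to 42.2 in the other 6 libraries. The 7 listed of 9 erythroid genes summed to 1091, 2957, 2343, 3855 and 5609 in Rragc+/+ replicates 1 to 5 and to 751, 379, 1242 and 2158 in RragcS74N/+ replicates 1 to 4. The highest erythroid sum was again in Rragc+/+ replicate 5, but Rragc+/+ replicate 4, which had the next one, had a ribosomal share of 3.37%. The 2 listed B cell genes of 8 summed to 86.2 to 146, the 1 listed T and NK cell gene of 8 was at 14.5 to 28.9, and the 2 listed monocyte genes of 6 summed to 2202 to 3990, of which most was Ly6c2, which neutrophils also express. The highest gene of the erythroid list, Hbb-bs (a beta globin), had a log2 difference of -1.23 (SE 0.45), and that of the eosinophil and basophil list, Prg2 (a granule protein), had 1.38 (SE 0.61), each with a limma adjusted p of 0.713. The log2 differences of Ly6g, Retnlg, Ngp, Ighm and Cd3d, the highest of the other lists, ran from -0.34 to 0.11. The part of cell composition and maturation in the ribosomal values was not tested.

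**Figure D5:**
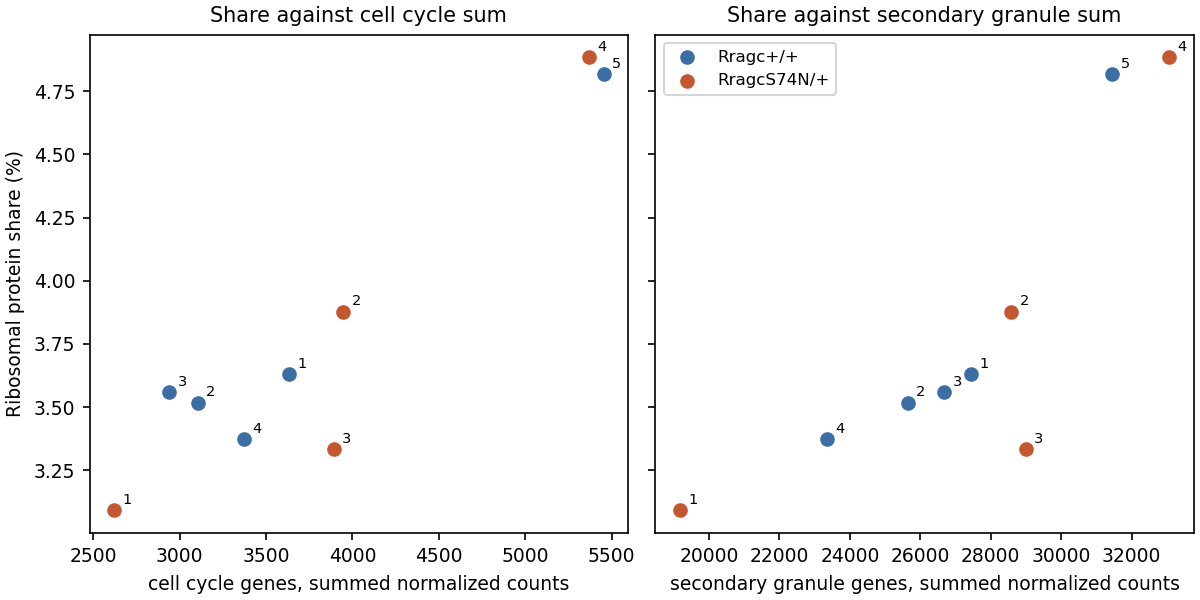
Ribosomal protein share (vertical axis, %) against the summed normalized counts of 15 cell cycle genes (left) and 7 secondary granule genes (right) in each of the 9 libraries, marked with its replicate number and coloured by genotype. Rragc+/+ replicate 5 and RragcS74N/+ replicate 4 are highest on both axes in both panels, and RragcS74N/+ replicate 1 is lowest. The sums, unlike the share, depend on how the libraries were scaled, and the vertical axis does not start at 0. Relative to the library total, the secondary granule sum was larger in RragcS74N/+ replicate 3 than in Rragc+/+ replicate 5 or RragcS74N/+ replicate 4.

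Other genes of the translation pathway were read from the same fit. The list of 25 other TOP RNAs holds elongation factors, initiation factor subunits, other coding genes such as Npm1 and Vim, and the non-coding host genes Gas5, Snhg5 and Snhg8. All 25 were tested and 0 were at an unadjusted p under 0.05 (5.81% of all genes), with a median log2 difference of 0.036. The lower gene with the smallest p was Eef2, the factor that moves the ribosome along the message, with a log2 difference of -0.30 (SE 0.18). The higher one was Eif3e, a subunit of the initiation factor that binds the small subunit, with 0.66 (SE 0.36). Eif3e was at 72.4, 32.7, 44.1, 55.5 and 134 in Rragc+/+ replicates 1 to 5 and 55.0, 105, 96.4 and 150.5 in RragcS74N/+ replicates 1 to 4, lowest in Rragc+/+ replicate 2 and highest in RragcS74N/+ replicate 4 and Rragc+/+ replicate 5, as many members were.

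Of 34 ribosome biogenesis genes 12 were listed and 11 tested, so most genes of nucleolar assembly were below the listing and are not covered. Of these 11, 1 (9.09%) was at an unadjusted p under 0.05, against 5.81% of all genes. This was Eif6, which keeps free large subunits from joining small ones, at 33.6, 61.9, 33.7, 39.4 and 38.1 in Rragc+/+ replicates 1 to 5 and 29.8, 23.4, 33.1 and 27.2 in RragcS74N/+ replicates 1 to 4. All 4 RragcS74N/+ libraries were below all 5 Rragc+/+ libraries, although the gap between 33.1 and 33.6 was small, and 1.69% of all genes had no overlap. The log2 difference was -0.50 (SE 0.22) (limma, adjusted p = 0.713) and -0.35 without Rragc+/+ replicate 2. The higher gene with the smallest p was Taf1d, a subunit of the factor that starts ribosomal RNA transcription, at 0.40 (SE 0.24).

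Among 15 tested genes of the mTORC1 pathway to translation, 0 were at an unadjusted p under 0.05 and the median log2 difference was -0.037. Rps6kb2, an S6 kinase, had a log2 difference of -0.47 (SE 0.29), and Larp4, a protein that binds poly(A) tails, had 0.32 (SE 0.19). The mitochondrial ribosomal proteins build a separate ribosome and are not TOP messages as a class. Of 50 tested, 3 (6.0%) were at an unadjusted p under 0.05, all lower (3.81% of all genes were lower), and the median log2 difference was 0.0017. Mrps12 had the smallest p, at 35.6, 88.8, 38.4, 45.8 and 41.1 in Rragc+/+ replicates 1 to 5 and 18.6, 10.2, 40.7 and 26.1 in RragcS74N/+ replicates 1 to 4. RragcS74N/+ replicate 3 lay among the Rragc+/+ libraries, and Rragc+/+ replicate 2 was the highest. Its log2 difference was -1.11 (SE 0.36) (limma, adjusted p = 0.713) and -0.88 without Rragc+/+ replicate 2. The higher gene with the smallest p, Mrpl47, had a log2 difference of 0.71 (SE 0.37).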

How the data were processed

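RNA of sorted bone marrow neutrophils was made into 3′-end libraries with oligo-dT priming and molecular identifiers. The study's methods name TopHat2 (2.0.10 in the submitters' notes) for alignment to GRCm39, with several hits per read permitted, and HTSeq 0.6.1 for stranded counting on GENCODE genes. The deposited table holds a signal: the authors scaled each library's gene counts by a single size factor. Collapsing of reads by identifier, and the filter behind the 7197 listed genes, are not given in the sources used here. Each deposited value divided by its library's smallest step came out whole (100% of values, to within 0.01 read), which gave the recovered reads. 0 columns were left without a sample.

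Gene values were taken as log2(value + 1), which understates changes of low genes. Genes averaging 10 or more normalized counts were fitted with limma 3.58.1 (R 4.3.3), trended moderation and genotype as the only term, and p-values were adjusted by Benjamini-Hochberg over all 6673 genes. edgeR 4.0.16 and DESeq2 1.42.0 on recovered reads were alternatives (8 genes had no adjusted p in DESeq2), as were other pseudocounts, filters, scalings, moderation, library weights, removal of a GC trend and removal of each library. The fit was also run on simulated counts in which genes varied independently of each other. The simulation held no shifts shared by many genes of a library, so it does not cover such shifts. No pair of libraries of 1 genotype agreed within sampling noise (chi-square per degree of freedom at least 5.47 over 16 pairs).

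The members and lists were chosen with earlier results of these data known. Members named are the 6 lower and 6 higher with the smallest p, the 6 highest and 4 lowest, the paralogs, the untested member, and Rpsa, Fau, Rplp0, Rplp1, Rplp2, Rps6 and Rps27a, with the lower and the higher gene of smallest p in each pathway list and the highest gene of each marker list. Of the 6 lower members, 1 is not reported here and is left out of the plots of single genes, but all counts and sums include it. Other genes were named after their values were seen, as examples of a library pattern or for their start sequence. Transcript features came from GENCODE M21 (GRCm38), matched by symbol for 98.2% of listed genes and all 82 members. A single transcript was chosen per gene from its annotation and not from the reads. The study's text describes more RragcS74N/+ mice than there are libraries of this genotype here.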

Additional observations from a re-analysis of the deposited data

Results flagged for a closer look

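Among 120 groups of values examined for a single library far from the rest of its genotype, 11 were found, and chance alone finds about 1 in 20, which is 6 here. The groups are not independent: Prg2, for example, is part of the eosinophil and basophil sum. The 11 set against 6 is therefore a rough guide and not a test. In each, the gap between the extreme library and its nearest neighbour is given as a share of the group's whole range.

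Rragc+/+ replicate 5 stood alone on the high side in 7 of the 11. It did so for the ribosomal share of normalized counts (4.82% against 3.63% for the next library, gap 0.821) and for the median member's log2 deviation (0.45 against -0.048, gap 0.729). It did so for the paralogs Rpl22l1 (170.4 against 67.5 normalized counts, gap 0.717) and Rps27l (236 against 113, gap 0.874). It did so for the summed cell cycle genes (5452 against 3635, gap 0.723), for the summed eosinophil and basophil genes (115 against 35.4, gap 0.820) and for Prg2, a granule protein of eosinophils (80.2 against 23.3, gap 0.825).

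Rragc+/+ replicate 2 was alone on the high side for Eif6 (61.9 against 39.4, gap 0.795) and for Mrps12 (88.8 against 45.8, gap 0.807). RragcS74N/+ replicate 4 was alone on the high side for Rpsa (72.1 against 51.1, gap 0.831) and for the summed sorting markers Ly6g, Itgam and Ptprc (6159 against 5113, gap 0.882).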

How the results depend on the processing

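The count of adjusted calls among members was 0 in every alternative. The percentages that follow are the share of all genes tested in the same fit. The unadjusted count of members (6, with 5.81%) was 2 with moderation without trend (5.66%), 2 with the GC trend removed (3.98%), 11 with library weights (11.5%), and 1 to 11 with one library left out at a time. It was 11 without Rragc+/+ replicate 5 (13.7%), 10 without Rragc+/+ replicate 4 (4.83%), 2 without Rragc+/+ replicate 2 (3.01%), 2 without RragcS74N/+ replicate 2 (3.82%), 1 without Rragc+/+ replicate 3 (3.36%) and 1 without RragcS74N/+ replicate 1 (4.68%). It was 9 with columns rescaled to the same total over all genes (5.26%) or over genes outside the members (5.42%). Without RragcS74N/+ replicate 4 it was 7 (3.33%). The members in these counts of 9, 7 and 10 were all lower. Members whose genotypes did not overlap (0, with 1.69%) numbered 2 with columns rescaled to the same total over all genes (1.2%) or over genes outside the members (1.3%). They numbered 0 to 4 with one library left out, with 4 without RragcS74N/+ replicate 4 (2.85%), 2 without Rragc+/+ replicate 4 (2.55%), 2 without Rragc+/+ replicate 5 (6.29%), 1 without Rragc+/+ replicate 1 (4.44%) and 1 without RragcS74N/+ replicate 2 (3.24%). At an unadjusted p under 0.05, the other TOP list (0) had 1 gene with library weights and 0 to 3 with one library out (3 without Rragc+/+ replicate 5). The biogenesis list (1) had 0 with a mean of at least 50 (5.5%), with equal totals (5.26%), with DESeq2, with the GC trend removed and without 3 libraries, and 0 to 1 with one library out. The mTORC1 list (0) had 1 without the 3 libraries. The mitochondrial list (3) had 0 with a mean of at least 50, 7 with library weights, 1 without the 3 libraries and 2 to 6 with one library out (6 without Rragc+/+ replicate 5 or RragcS74N/+ replicate 1). The removal of 3 libraries together (Rragc+/+ replicates 2 and 5 and RragcS74N/+ replicate 4) was chosen after seeing the data. The cause of these changes was not tested.

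The median member's log2 difference (0.025) was -0.15 without RragcS74N/+ replicate 4, when 63 of 81 members were negative, and 0.16 without RragcS74N/+ replicate 1, when 27 were. With the GC trend removed it was 0.12. Scaling moved the median of all genes by less than 0.01.

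Single log2 differences near 0 changed sign. Without the 3 libraries they were -0.053 for Rpl10, -0.056 for Rpl13a, -0.020 for Rps29, -0.021 for Ly6g and -0.035 for Ly6c2. With library weights they were 0.074 for Rpl12 and 0.054 for Rpl7l1. With the GC trend removed they were 0.11 for Rpl7l1, 0.014 for Rplp1, 0.021 for Rplp2, 0.0016 for Rps14, 0.11 for Rps9 and 0.047 for Ngp. Ly6c2 was -0.0084 with equal totals, -0.0082 with equal totals outside the members and -0.0072 with TMM scaling. With one library left out, the ranges that crossed 0 were -0.30 to 0.14 for Rpl12, -0.058 to 0.49 for Rpl13a, -0.085 to 0.13 for Rpl3, -0.029 to 0.38 for Rpl37, -0.11 to 0.072 for Rpl7l1, -0.20 to 0.16 for Rplp2, -0.045 to 0.48 for Rps27l, -0.054 to 0.26 for Rps29, -0.15 to 0.18 for Ly6g, -0.059 to 0.27 for Retnlg, -0.13 to 0.053 for Ngp, -0.12 to 0.31 for H2az1 and -0.19 to 0.11 for Ly6c2. None of these passed an adjusted p of 0.05 in limma.

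No paired analysis was possible because replicate numbers were assigned here and the labels carry none. Low counts limit genes such as Rpl10a and Rpl13a.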
